A study of Homo sapiens with 10 samples.

Results

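The files give anti-FLAG eCLIP read counts for each gene symbol in 7 classes, 1 of which is headed only "transcript". The other classes are CDS (coding sequence), 5' leader, 3'UTR, ncRNA, pseudogene and LINC, and the sources used here do not say which annotated RNAs it holds. The rows described were chosen by their summed count: they are the symbols whose transcript-class counts summed to at least 20 over the 10 libraries, without KRT32 and CNIH3. There were 1080 such rows, of 3016 symbols with any transcript-class count and of 67566 symbol and class pairs with a count in the series. Their abundance is therefore a description and carries no test.

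The cells were HEK 293T, an established human line of embryonic kidney origin, with a FLAG-tagged form of eIF4A. The labels do not say which eIF4A protein was tagged, nor how it was introduced. Cells received silvestrol (20 nM) or CR-1-31-B (20 nM) for 1 h, or vehicle (DMSO). They were crosslinked with ultraviolet light, and the RNA held by tagged eIF4A was pulled down with an anti-FLAG antibody. There were 3 silvestrol, 3 CR-1-31-B and 3 DMSO libraries, and 1 input library made without antibody, for which the labels name no treatment.

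eIF4A is the RNA helicase of the cap-binding complex eIF4F and unwinds mRNA 5' leaders ahead of the scanning ribosome. Silvestrol and CR-1-31-B are rocaglates, small molecules that hold eIF4A on RNA, with a known preference for stretches of purines (A and G). A coding gene can also have transcripts that are annotated as non-coding, such as many that retain an intron. These have no leader, CDS or 3'UTR of their own in that annotation.

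The rows belonged mostly to coding genes. In the RefSeq table for GRCh38.p14, 1040 of the 1080 symbols matched (96.3%), and 942 of those (90.6%) were protein-coding, 87 were lncRNA genes and 11 pseudogenes. Among the 942 coding symbols, 682 (72.4%) also had a non-coding RefSeq transcript. The share was 73.3% for coding symbols with 1 to 19 transcript-class counts, and 15.4% (1931 of 12511) for coding symbols with at least 20 counts in all and none in the transcript class. These shares describe the annotation and not the counted reads, and no column of the files states the link.

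Purine stretches are printed here because rocaglates are known to prefer them. The genome positions of the counted reads were not used here, so each sequence is the longest uninterrupted purine run of the annotated non-coding transcripts of its symbol (GENCODE release 29, GRCh38), and not a measured binding site. Capitals mark the run and lower case its flanks, written 5' to 3' on the transcript strand.
HELLS: tatGAGGAAAAAAAGAGGAAGAGAAGAtga
SETD2: aaaatAAAGAGAAAAGGAAAcgaag
NAF1: aacttAAAAAGAGAAAAAGGAGAAAcattg
TAPBPL: cctacGAAAAAAGGAGAAAAGAtaaga
The HELLS stretch lies at chr10:94562813-94562842 (plus strand) and the SETD2 stretch at chr3:47062223-47062247 (minus strand). The NAF1 stretch lies at chr4:163135203-163135232 (minus strand) and the TAPBPL stretch at chr12:6466135-6466161 (plus strand). The runs were 24 bases long in HELLS, 15 in SETD2, 20 in NAF1 and 17 in TAPBPL. HELLS is the most abundant row, SETD2 is among the rows highest with the rocaglates, and NAF1 and TAPBPL are among those lowest with them. The 4 are examples, and other named rows had shorter or longer runs. Of the 5 highest rows, 4 had an annotated non-coding transcript, with a median longest run of 13 bases. All 5 lowest rows had one, with a median of 17 bases, and no difference was tested. Over the 821 rows with such a transcript, the median longest run was 15 bases and 20.0% held a run of at least 20. Over 14846 other symbols of the files the median was 14 bases and 16.7% held such a run. The transcripts of the 821 rows were also longer in sum (median 4391 bases, against 2695), and 73.4% of them, against 57.4%, had a retained-intron transcript.

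The anti-FLAG libraries held 858733 to 1804732 counts and the input library 2193699. In the input library, VIM (326 counts), KRT8 (62), KRT18 (46), PAX2 (34) and EEF1A1 (3191) were detected, while HBB, PTPRC and CD3E had 0 counts and ALB had 1. CR-1-31-B library 3 stood apart from the other CR-1-31-B libraries in its leader share and in several rows below. The 3 anti-FLAG libraries numbered 2 held counts for fewer of the rows than the others of their groups. Values resting on either are given by library.

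Most rows were thinly covered. The 1080 rows held 132773 counts in all, with a median of 61 counts a row over the 10 libraries. There were 445 rows with 20 to 49 counts, 349 with at least 100 and 38 with at least 500, and the 10 largest held 15.98% of the counts. At the threshold itself, 25 rows had exactly 20 counts and 36 rows just outside had 19. Among the rows with 20 counts, BPHL had 3 in the input library and 0 to 4 in each anti-FLAG library, C20orf173 had 9 of its 20 in DMSO library 2, and C2CD3 had 10 of its 20 in CR-1-31-B libraries 1 and 2. Just outside, ADAM15, ADAMTS10 and ATP8B3 had 19 counts each, spread as unevenly (ATP8B3 had 9 in silvestrol library 2).

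The transcript class shared its symbol with mRNA parts in 976 rows, of which 857 had leader, CDS and 3'UTR counts together. It was the sole class of the symbol in 104 rows, 94 of them symbols beginning with LOC, the placeholder for genes without an approved name. No row had ncRNA, pseudogene or LINC counts under the same symbol. Where other classes had counts, the transcript class held a median of 14.6% of the symbol's counts. It held under 10% in 381 rows, 10 to 50% in 455 and over 50% in 140.

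The question put to these rows was whether eIF4A crosslinks to them as it does to mRNA leaders, and whether a rocaglate changes this. In sum they took a small share of every library, from 0.896% to 1.30%. Silvestrol libraries gave 0.896%, 1.11% and 1.13% of their counts to the rows, CR-1-31-B libraries 0.930%, 0.896% and 1.30%, DMSO libraries 1.096%, 1.15% and 1.29%, and the input library 0.965% (0.953% to 0.978%, the 95% Clopper-Pearson interval). The means were 1.05% ± 0.130 with silvestrol, 1.04% ± 0.221 with CR-1-31-B and 1.18% ± 0.0978 in DMSO (SD, n = 3 each). The silvestrol, CR-1-31-B and DMSO groups overlapped, and the rocaglate libraries with the lowest shares were silvestrol 1 and CR-1-31-B 1 and 2. All 3 DMSO libraries lay above the input interval, while silvestrol 1 and CR-1-31-B 1 and 2 lay below it. That interval covers counting error in 1 library alone.

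The number of rows with any count ran with the library number among the anti-FLAG libraries. Rows with at least 1 count numbered 994, 768 and 964 in silvestrol libraries 1 to 3, 989, 806 and 980 in CR-1-31-B libraries, 977, 832 and 1009 in DMSO libraries, and 1039 in the input library. Library 2 was lowest in each anti-FLAG group, while the input library, also labelled number 2, had the most. Depth did not run with this, since CR-1-31-B library 2 held 1279001 counts and CR-1-31-B library 3 held 915817.

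Beside the mRNA parts of the same symbols, the transcript class did not share the leaders' pattern. Over the 976 symbols with other classes, the leader took 28.99% of counts with silvestrol, 28.1% with CR-1-31-B, 21.2% in DMSO and 9.33% in input. The transcript class took 13.7% ± 1.66 with silvestrol, 13.4% ± 2.60 with CR-1-31-B, 15.1% ± 1.37 in DMSO (SD, n = 3 each) and 15.8% in input. The CDS took 36.1%, 37.9%, 38.1% and 47.0%, and the 3'UTR 21.2%, 20.6%, 25.5% and 27.9%, for silvestrol, CR-1-31-B, DMSO and input. Leader shares of all 3 silvestrol libraries and of CR-1-31-B libraries 1 and 2 lay above every DMSO library. Transcript-class shares did not separate the groups: silvestrol libraries had 11.8%, 14.96% and 14.4%, CR-1-31-B libraries 11.9%, 11.9% and 16.4%, and DMSO libraries 13.6%, 15.5% and 16.3%. These are shares of 1 total, so a higher leader share lowers the others without any loss of counts there.

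**Figure D1:**
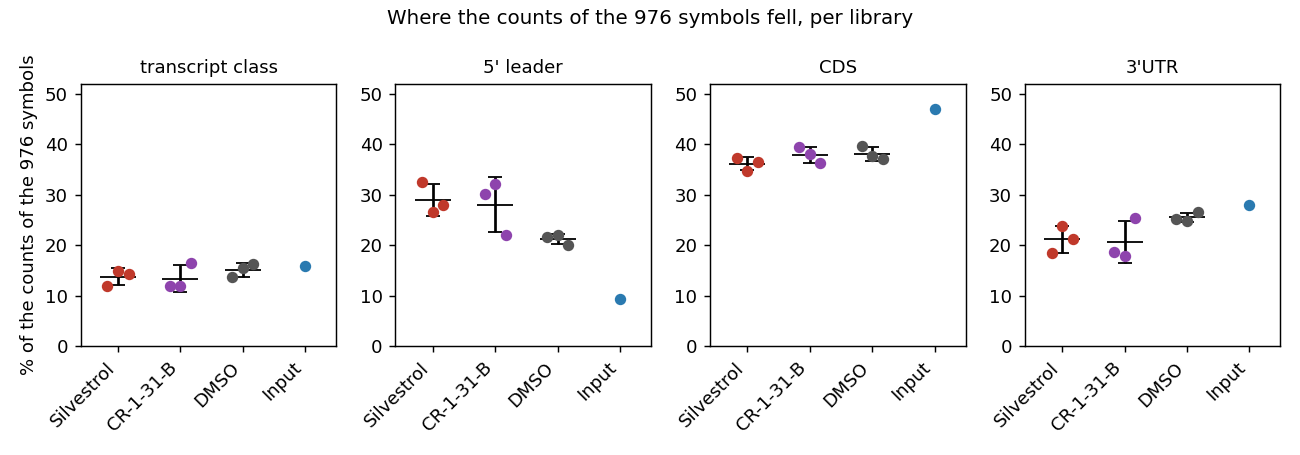
Percent of the counts of 976 symbols that fell in the transcript class, the 5' leader, the CDS and the 3'UTR (y axis, 4 panels), for silvestrol, CR-1-31-B, DMSO and input (x axis). Points are libraries in number order and bars are the mean with SD of 3 libraries. The leader panel separates DMSO (21.2%) from input (9.33%), while the transcript panel does not (15.1% and 15.8%).

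Anti-FLAG recovery in DMSO was set against input to describe recovery with the tagged protein without a compound. No pulldown from untagged cells or with another antibody was among the libraries. Binding by eIF4A and unspecific recovery therefore cannot be told apart in these ratios. There was 1 input library, so these ratios have no replicate check and no test. Levels are counts scaled to the library total (CPM). Over the 541 rows with at least 10 input counts, the median ratio of DMSO to input was 0.971 (quartiles 0.677 and 1.41). The minimum, set on input for every class alike, favours rows high in input. Leaders of the same symbols had a median of 2.07, all leaders of the series 2.47, all CDS 0.965, all 3'UTRs 1.03 and all ncRNAs 0.917. Above 2-fold were 43 rows (7.95%), against 60.2% of all leaders and 11.1% of all CDS. Below 0.5 were 79 rows (14.6%), against 11.3% of all CDS, 9.11% of all 3'UTRs and 18.8% of all ncRNAs. All 3 DMSO libraries lay above the exact Poisson interval of the input level in 33 rows (6.10%), against 50.9% of all leaders, 10.8% of all CDS, 5.93% of all 3'UTRs and 7.70% of all ncRNAs. They lay below it in 45 rows (8.32%), against 1.98% of all leaders, 12.3% of all CDS, 7.17% of all 3'UTRs and 14.4% of all ncRNAs. With TMM-scaled library sizes every class moved down together, the median being 0.781 for the rows, 2.00 for all leaders and 0.778 for all CDS.

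There were 4 rows above 5-fold. The row highest against input was LOC100287175, a lncRNA gene on chromosome 16 counted in no other class. It had 355, 509 and 551 CPM in DMSO libraries and 13.7 CPM in input (30 counts, 95% exact Poisson interval 9.23 to 19.5 CPM), a ratio of 34.5. MLF2 had 130, 52.1 and 67.8 CPM in DMSO libraries and 6.38 CPM in input (3.49 to 10.7), a ratio of 13.0. In both rows each DMSO library lay above the input interval.

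VDAC1, which encodes a channel of the mitochondrial outer membrane, had 93.3, 54.0 and 58.3 CPM in DMSO libraries and 7.29 CPM in input, a ratio of 9.40. TOP2B, a DNA topoisomerase, had 129, 140 and 133 CPM in DMSO libraries and 22.3 CPM in input, a ratio of 5.98. In both rows each DMSO library was again above input. VASH1, a tubulin carboxypeptidase, came next at 4.93, with 42.0, 101.4 and 51.9 CPM in DMSO libraries and 13.2 CPM in input.

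The other classes of these symbols did not share the high ratio in every case. The CDS of MLF2 averaged 46.6 ± 4.35 CPM in DMSO (SD, n = 3) and 31.9 CPM in input, and the CDS of VDAC1 47.1 ± 22.8 CPM in DMSO and 30.5 CPM in input. The CDS of TOP2B averaged 74.9 ± 18.3 CPM in DMSO, below the 79.8 CPM in input, while its leader averaged 70.2 ± 13.3 CPM in DMSO and 12.8 CPM in input. For TOP2B the transcript row and the leader were thus both above input and the CDS was not.

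At the other end, the lowest ratios are given among rows that passed the filter described below, which used anti-FLAG libraries only. That left out most rows low against input: 13 of the 352 that passed lay below 0.5, against 79 of the 541. CCDC40, a gene of ciliary axoneme assembly, had 9.33, 0 and 5.30 CPM in DMSO libraries and 94.4 CPM in input (207 counts), a ratio of 0.0517. Its rocaglate libraries were also below input, with 8.31, 19.9 and 14.0 CPM with silvestrol and 4.35, 0 and 9.83 CPM with CR-1-31-B. Silvestrol libraries 2 and 3 and CR-1-31-B library 3 lay above every DMSO library. These 3 libraries by themselves met the filter for this row, so their lying above DMSO is not independent of it. DHX8, a splicing helicase, had a ratio of 0.288, LOC441087, a lncRNA, 0.310, DKC1, the pseudouridine synthase of H/ACA particles, 0.337, and EVC, a ciliary protein of Hedgehog signalling, 0.401. DKC1 overlaps SNORA36A, MIR664B and SNORA56 in the RefSeq table, and reads of overlapping genes may have been divided among them. Of the 29 named symbols in that table, 21 are overlapped by another gene.

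**Figure D2:**
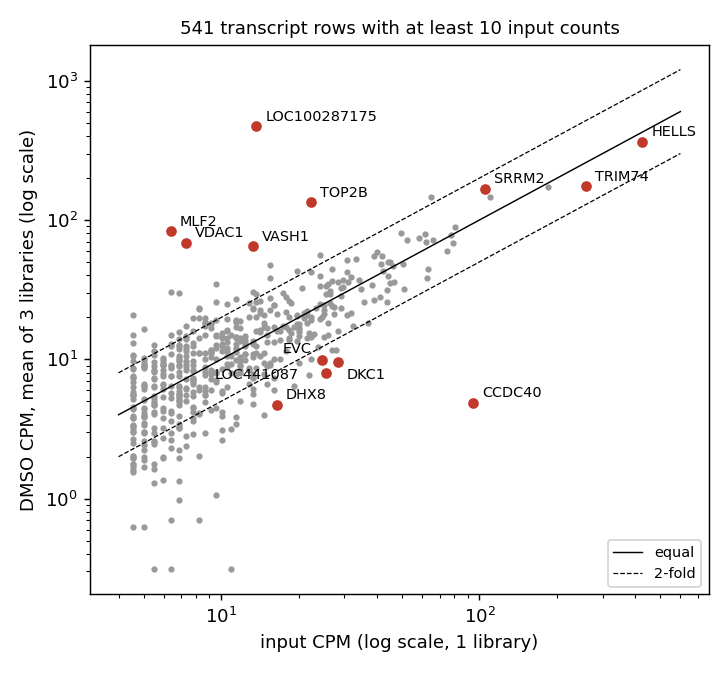
Mean CPM of the 3 DMSO libraries (y axis, log scale) against input CPM (x axis, log scale, 1 library) for the 541 transcript rows with at least 10 input counts. Lines mark equality and a 2-fold difference. Most rows lie near equality (median ratio 0.971), with LOC100287175 (34.5) and MLF2 (13.0) far above and CCDC40 (0.0517) far below.

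The most abundant rows were led by HELLS, a chromatin remodelling helicase. HELLS had 249, 293 and 231 CPM in silvestrol libraries, 222, 238 and 447 CPM in CR-1-31-B libraries, 371, 358 and 368 CPM in DMSO libraries and 427 CPM in input. Every silvestrol library and CR-1-31-B libraries 1 and 2 lay below the DMSO libraries, and CR-1-31-B library 3 lay above them. For both rocaglates against DMSO the log2 fold change was -0.39 (SE 0.29, edgeR adjusted p = 0.722).

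The transcript class held 60.0%, 66.5% and 55.6% of HELLS counts in silvestrol libraries, 52.7%, 62.6% and 72.8% in CR-1-31-B libraries, 69.8%, 74.9% and 79.4% in DMSO libraries and 77.2% in input. The leader of HELLS averaged 68.7 ± 19.7 CPM with silvestrol, 59.6 ± 19.4 CPM with CR-1-31-B and 24.4 ± 15.7 CPM in DMSO (SD, n = 3 each). Its log2 fold change of 1.41 for both rocaglates was not called (edgeR adjusted p = 0.158) but was with the library number as a block (edgeR adjusted p = 0.0272).

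LOC100287175 was the second most abundant row and was uneven between libraries. It had 321, 542 and 170 CPM in silvestrol libraries, 280, 395 and 22.9 CPM in CR-1-31-B libraries and 355, 509 and 551 CPM in DMSO libraries. Library 3 was the lowest of both rocaglate groups and the highest of the DMSO group. The log2 fold change for both rocaglates was -0.72 (SE 0.48, edgeR adjusted p = 0.679).

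TRIM74, a tripartite motif protein with a near-identical copy in the genome (TRIM73), had 127, 218 and 193 CPM in silvestrol libraries, 133, 131 and 223 CPM in CR-1-31-B libraries, 130, 173 and 221 CPM in DMSO libraries and 258 CPM in input. How reads of the copies were divided was not given in the sources used here. LOC100507460 and LOC100506634, both absent from the RefSeq table by these names, had 2093 and 1535 counts in all, with no other class. They lay within 90.7 to 260 CPM and within 95.4 to 186 CPM in every library, input included.

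SRRM2, a spliceosome-associated protein of nuclear speckles, showed a transcript row and a leader with unlike values. The transcript row had 139, 116 and 158 CPM in silvestrol libraries, 173, 132 and 180 CPM in CR-1-31-B libraries, 148, 160 and 194 CPM in DMSO libraries and 105 CPM in input. Its leader averaged 400 ± 99.7 CPM with silvestrol, 341 ± 110 CPM with CR-1-31-B and 135 ± 19.02 CPM in DMSO (SD, n = 3 each). The leader rose, by a log2 fold change of 1.45 for both rocaglates (edgeR adjusted p = 0.0440), and the transcript row overlapped between all groups.

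TOP2B overlapped between groups too, with 132, 103 and 135 CPM in silvestrol libraries and 170, 202 and 103 CPM in CR-1-31-B libraries (log2 fold change 0.07 for both rocaglates, SE 0.30, edgeR adjusted p = 0.968). FNBP4, a formin-binding protein, had 90.9, 63.7 and 90.8 CPM in silvestrol libraries, 117, 59.4 and 129 CPM in CR-1-31-B libraries and 185, 107 and 146 CPM in DMSO libraries. Its log2 fold change for both rocaglates was -0.67 (SE 0.30, edgeR adjusted p = 0.454).

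RBM15, an RNA-binding cofactor of m6A methylation, had 56.0, 56.8 and 62.9 CPM in silvestrol libraries, 59.6, 32.1 and 69.9 CPM in CR-1-31-B libraries and 81.2, 81.0 and 76.3 CPM in DMSO libraries. All 6 rocaglate libraries lay below all DMSO libraries, as in 2.40% of the tested rows and 2.4% of all features. The log2 fold change of RBM15 for both rocaglates was -0.51 (SE 0.31, edgeR adjusted p = 0.631). The other rows among the 15 most abundant, ZNF207 (a mitotic spindle protein), SHPRH (a ubiquitin ligase), ZNF431 (a zinc finger protein) and NPLOC4 (a cofactor of the VCP segregase), overlapped between groups, and so did VDAC1.

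Across all rows, the response to each rocaglate was tested with edgeR's quasi-likelihood test, fitted on 24713 features (a symbol in 1 class) of the 9 anti-FLAG libraries, with Benjamini-Hochberg adjustment over all of them and an adjusted p under 0.05 as a call. The filter on low counts asked for at least about 9.33 CPM in 3 libraries and kept 417 of the 1080 rows. It was met in 3 rows through DMSO libraries alone and in 22 through rocaglate libraries alone, so the side on which these 25 rows were higher was partly set by the filter. None of the 417 was called with silvestrol, where 0.255% of all features were called, none with CR-1-31-B (0.291% of all features) and none for both rocaglates against DMSO (0.49%). At an unadjusted p under 0.05 there were 16 rows with silvestrol (3.84%, against 8.09% of all features), 21 with CR-1-31-B (5.04%, against 8.86%) and 23 for both (5.52%, against 10.0%). DESeq2 called 1 row (MLF2) with silvestrol, where it called 1.25% of all features, 2 (CRKL and SETD2) with CR-1-31-B (1.36%) and 3 (CRKL, MLF2 and SETD2) for both (2.15%). The smallest edgeR adjusted p was 0.161 with silvestrol, 0.134 with CR-1-31-B and 0.108 for both.

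The rows were measured less precisely than the features as a whole. The median standard error of a log2 fold change was 0.71 for the rows and 0.59 for all features, with each compound against DMSO. At this precision a change of about 2-fold in a single row of median standard error was within the error of its estimate.

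In direction the rows lay with the CDS and the 3'UTR and not with the leaders. Their median log2 fold change was -0.21 with silvestrol (40.05% above 0), -0.16 with CR-1-31-B (38.6%) and -0.20 for both (37.4%), against -0.04, -0.03 and -0.05 over all tested features. For the same symbols, 205 leaders had medians of 0.35 with silvestrol and 0.34 with CR-1-31-B, 268 CDS of -0.10 and -0.07, and 194 3'UTRs of -0.22 and -0.31. Over other symbols, LINC features had medians of -0.19 with silvestrol and -0.21 with CR-1-31-B, pseudogenes of -0.12 and -0.11, and ncRNAs of 0.01 and -0.10. These fold changes are relative within a library, so higher leaders can lower the other classes without any loss there. Both compounds share the DMSO libraries. RNA levels per treatment were not measured, so binding and RNA amount cannot be told apart.

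**Figure D3:**
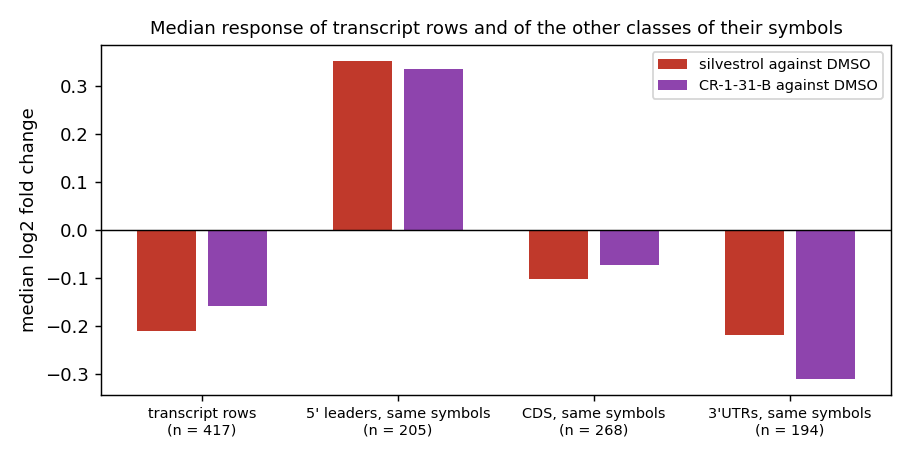
Median log2 fold change of silvestrol and of CR-1-31-B against DMSO (y axis) for the 417 tested transcript rows and for the leaders, CDS and 3'UTRs of the same symbols (x axis), with no error drawn. The leader bars point up (0.35 and 0.34) and the transcript bars down (-0.21 and -0.16).

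Without overlap between groups, few rows lay above DMSO. Every silvestrol library lay above every DMSO library in 15 rows (3.597%, against 7.87% of all features) and below in 33 (7.91%, against 7.15%). With CR-1-31-B there were 8 rows above (1.92%, against 8.09%) and 32 below (7.67%, against 6.57%). All 6 rocaglate libraries lay above DMSO in 3 rows (0.719%, against 3.51%), which were SETD2, GSK3A and RCC1, and below in 10 (2.40%, against 2.4%). The 10 were RBM15, LOC100128340, AKAP8L, SMIM5, PI4KA, RCBTB1, GATAD1, NAF1, MPHOSPH8 and NUBPL, of which only RBM15, NAF1 and NUBPL fell under the rule for named genes. GSK3A and RCC1 passed the filter through rocaglate libraries alone, so their separation from DMSO is not independent of it. SETD2 reached the cut in 6 rocaglate and 2 DMSO libraries, so it did not pass on DMSO libraries alone. NAF1 and NUBPL passed through DMSO libraries alone, with every rocaglate library under the cut, so the filter set their separation.

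MLF2 was the sole row called with the library number as a block. In that fit the edgeR adjusted p for both rocaglates was 0.0543 for SETD2, 0.0601 for CRKL and 0.0749 for RCC1, each lower than without the block. CPM of single rows from here on are scaled by TMM. MLF2 had 277, 206 and 199 CPM in silvestrol libraries, 229, 292 and 95.01 CPM in CR-1-31-B libraries and 136, 59.4 and 73.3 CPM in DMSO libraries. Every silvestrol library and CR-1-31-B libraries 1 and 2 lay above all DMSO libraries, while CR-1-31-B library 3 lay within their range.

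The log2 fold change of MLF2 was 1.34 with silvestrol (SE 0.41, edgeR adjusted p = 0.224), 1.20 with CR-1-31-B (SE 0.41, edgeR adjusted p = 0.285) and 1.27 for both (SE 0.37, edgeR adjusted p = 0.142). With the block the edgeR adjusted p was 0.0297 with silvestrol, 0.0725 with CR-1-31-B and 0.0195 for both, and 1.28%, 1.48% and 2.04% of all features were called in these fits. Leaving out 1 library gave adjusted p-values of 0.0344 (without CR-1-31-B library 3) to 0.502 for both. The CDS of MLF2 had a log2 fold change of 0.55 for both rocaglates (edgeR adjusted p = 0.675) and its 3'UTR of 0.68 (edgeR adjusted p = 0.649), and its leader, with 94 counts in all, was not tested.

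RCC1, the nucleotide exchange factor of the GTPase Ran, had the highest fitted change. Its row held 22, 17 and 3 counts in silvestrol libraries, 18, 11 and 7 in CR-1-31-B libraries, 0, 0 and 1 in DMSO libraries and 5 in input. The ratio of the pooled levels was 35.4 with silvestrol (95% exact counting interval 6.01 to 1430) and 29.2 with CR-1-31-B (4.92 to 1186), which covers counting error alone. The fitted log2 fold change for both, 4.55 (SE 1.25, edgeR adjusted p = 0.108), rests on 1 DMSO count. RCC1, CRKL, GSK3A and TLR1, 4 of the 5 highest rows, passed the filter through rocaglate libraries alone, so that their rank is not independent of it. The ratio of RCC1 and its interval take no account of this, nor of its choice as the highest row.

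The leader of RCC1 ran the other way, with 9.75 ± 3.72 CPM with silvestrol, 21.5 ± 9.87 CPM with CR-1-31-B and 31.0 ± 3.06 CPM in DMSO (SD, n = 3 each, per library total, log2 fold change -1.10 for both, edgeR adjusted p = 0.354). RCC1 overlaps SNHG3, SNORA73A and SNORA73B in the RefSeq table, and whether strand was used in counting was not given in the sources used here.

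CRKL, an adaptor of tyrosine kinase signalling, had 36.7, 21.6 and 3.82 CPM in silvestrol libraries, 20.5, 112 and 4.63 CPM in CR-1-31-B libraries, 4.89, 6.37 and 3.43 CPM in DMSO libraries and 0 counts in input. Library 3 of both rocaglates lay at the DMSO level, and 1 CR-1-31-B library held most of the signal. The log2 fold change was 2.10 with silvestrol (SE 0.88, edgeR adjusted p = 0.501), 3.20 with CR-1-31-B (SE 0.87, edgeR adjusted p = 0.134) and 2.65 for both (SE 0.81, edgeR adjusted p = 0.170). Without CR-1-31-B library 2 the log2 fold change was 1.44 with CR-1-31-B (edgeR adjusted p = 1.00) and 1.80 for both (edgeR adjusted p = 0.524). Without CR-1-31-B library 3 the CR-1-31-B contrast was called (edgeR adjusted p = 0.0260), as was the contrast of both (edgeR adjusted p = 0.0473). The leader of CRKL averaged 132 ± 33.0 CPM with silvestrol, 202 ± 76.2 CPM with CR-1-31-B and 96.0 ± 28.99 CPM in DMSO (SD, n = 3 each, per library total).

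SETD2, the methyltransferase of histone H3 lysine 36, was among the 3 rows above DMSO throughout. It had 29.5, 31.8 and 29.3 CPM in silvestrol libraries, 45.6, 31.1 and 23.2 CPM in CR-1-31-B libraries and 10.8, 3.18 and 13.7 CPM in DMSO libraries. All 6 rocaglate libraries lay above the DMSO libraries. The log2 fold change was 1.70 with silvestrol (SE 0.56, edgeR adjusted p = 0.274), 1.85 with CR-1-31-B (SE 0.55, edgeR adjusted p = 0.187) and 1.78 for both (SE 0.51, edgeR adjusted p = 0.126).

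GSK3A, a serine/threonine kinase, had 21.7, 36.4 and 16.6 CPM in silvestrol libraries, 11.9, 10.4 and 12.7 CPM in CR-1-31-B libraries and 5.87, 4.25 and 6.87 CPM in DMSO libraries. The groups did not overlap, and the silvestrol libraries were the highest. The log2 fold change was 2.11 with silvestrol (SE 0.66, edgeR adjusted p = 0.236) and 1.57 for both (SE 0.60, edgeR adjusted p = 0.332). TLR1, a receptor for bacterial lipopeptides, completed the 5 highest with 10.2, 2.27 and 12.7 CPM in silvestrol libraries, 9.26, 1.73 and 22.0 CPM in CR-1-31-B libraries and 3.92, 0 and 3.43 CPM in DMSO libraries. Its library 2 values overlapped with DMSO (log2 fold change 1.91 for both, SE 1.07, edgeR adjusted p = 0.591).

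Among the 5 lowest rows, NUBPL, an assembly factor of respiratory complex I, had 9.04, 3.41 and 3.82 CPM in silvestrol libraries, 0.661, 0.865 and 6.95 CPM in CR-1-31-B libraries and 15.7, 13.8 and 17.2 CPM in DMSO libraries. All rocaglate libraries were below DMSO, at a log2 fold change of -1.99 for both (SE 0.81, edgeR adjusted p = 0.371). NAF1, an assembly factor of H/ACA particles, had 6.63, 0 and 2.55 CPM in silvestrol libraries, 5.29, 3.46 and 8.11 CPM in CR-1-31-B libraries and 14.7, 13.8 and 14.9 CPM in DMSO libraries (log2 fold change -1.72 for both, SE 0.81, edgeR adjusted p = 0.481). NUBPL and NAF1 passed the filter through DMSO libraries alone, so that lying below DMSO in every rocaglate library was set by it. Their place among the lowest rows is not independent of it either.

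NAF1 was also a symbol whose leader had a value of the other sign. Its leader averaged 39.1 ± 12.5 CPM with silvestrol, 34.4 ± 10.5 CPM with CR-1-31-B and 10.5 ± 10.6 CPM in DMSO (SD, n = 3 each, per library total, log2 fold change 1.76 for both). That change was not called (edgeR adjusted p = 0.179) but was with the block (edgeR adjusted p = 0.0440).

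RFFL, a ubiquitin ligase, had 5.42, 0 and 11.5 CPM in silvestrol libraries, 3.97, 0 and 5.79 CPM in CR-1-31-B libraries and 4.89, 33.96 and 10.3 CPM in DMSO libraries, so 1 DMSO library set its log2 fold change for both, -1.93 (SE 0.92, edgeR adjusted p = 0.490). TBC1D24 had 4.22, 14.8 and 10.2 CPM in silvestrol libraries, 0.661, 2.59 and 16.2 CPM in CR-1-31-B libraries and 13.7, 48.8 and 19.5 CPM in DMSO libraries, which overlapped. Its log2 fold change of -1.84 for both (SE 0.68, edgeR adjusted p = 0.302) was called without CR-1-31-B library 3 (edgeR adjusted p = 0.0453). TAPBPL, a peptide editor of MHC class I, had 0, 0 and 14.0 CPM in silvestrol libraries, 1.98, 0 and 4.63 CPM in CR-1-31-B libraries and 5.87, 11.7 and 12.6 CPM in DMSO libraries (log2 fold change -1.70 for both, SE 1.14, edgeR adjusted p = 0.679). RFFL and TAPBPL each reached the filter's cut in 1 rocaglate and 2 DMSO libraries, and TBC1D24 in 2 rocaglate and 3 DMSO libraries.

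**Figure D4:**
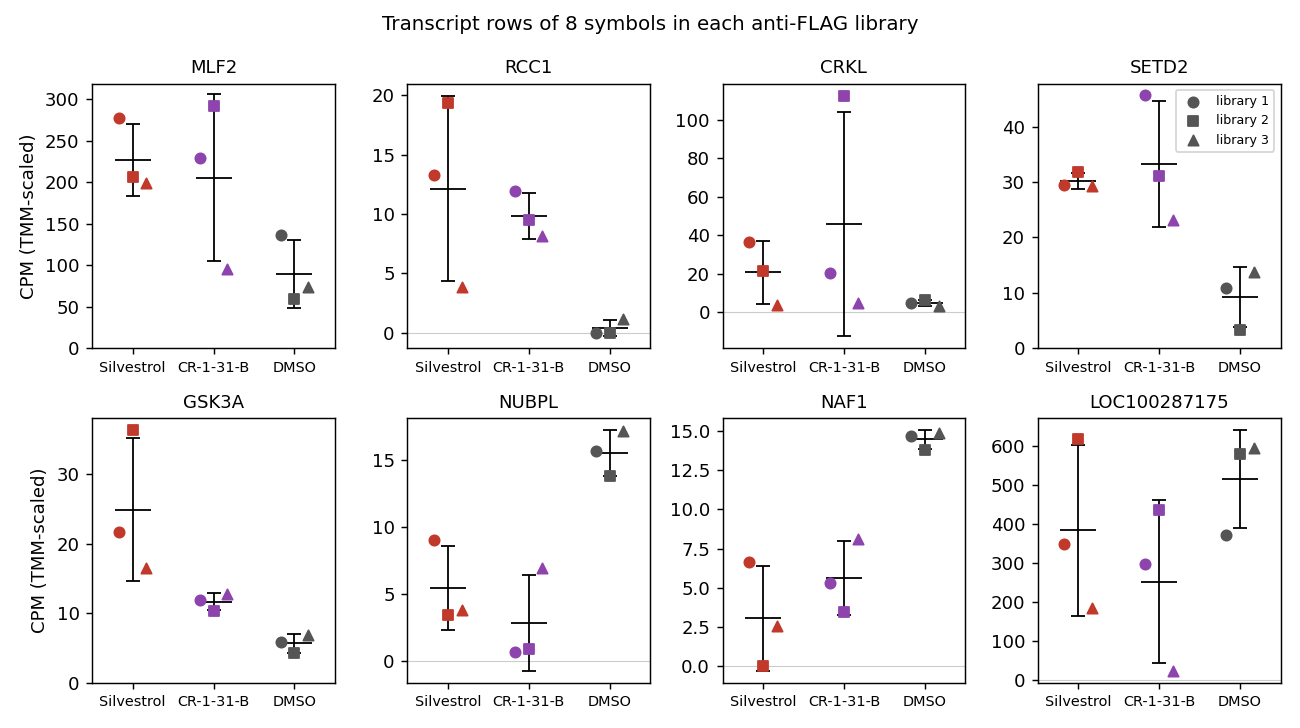
TMM-scaled CPM (y axis) of the transcript rows of 8 symbols in silvestrol, CR-1-31-B and DMSO libraries (x axis). Symbols mark the library number, and bars the mean with SD of 3 libraries. SETD2, GSK3A and RCC1 lie above DMSO and NUBPL and NAF1 below it in 6 of 6 rocaglate libraries, while library 3 of CRKL, and of MLF2 with CR-1-31-B, lies at the DMSO level. GSK3A and RCC1 passed the low-count filter through rocaglate libraries alone, and NUBPL and NAF1 through DMSO libraries alone. SETD2 reached its cut in 6 rocaglate and 2 DMSO libraries. The separation of these rows is therefore not independent of the filter.

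Silvestrol and CR-1-31-B, given at the same dose and time, were compared directly. No row was called by edgeR (0 of all features, 0%), and 8 rows passed an unadjusted p under 0.05 (1.92%, against 2.46% of all features). DESeq2 called none, and with the block edgeR called none of the rows (0.00405% of all features). The median log2 difference of CR-1-31-B minus silvestrol was 0.01 (quartiles -0.43 and 0.38), and the median 95% interval of a row reached 1.39 to either side, so the compounds are not shown to act alike on single rows. GSK3A was lower with CR-1-31-B by a log2 difference of -1.08 (95% interval -2.29 to 0.12) and CRKL higher by 1.098 (-0.37 to 2.57), and both intervals held 0.

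Whether a row moved apart from the rest of its symbol was tested with edgeR's diffSpliceDGE. Of the 417 rows, 308 had another tested class. None was called with silvestrol (0.063% of all such features) or with CR-1-31-B (0.0263%). At an unadjusted p under 0.05 there were 11 rows with silvestrol (3.57%, against 4.26% of all such features) and 13 with CR-1-31-B (4.22%, against 3.81%). On simulated counts this test missed most planted changes, large ones included, so the absence of calls says little about single rows. RCC1 had the smallest adjusted p, 0.111 with silvestrol and 0.221 with CR-1-31-B in edgeR's test, at a log2 difference from its symbol of 4.93 and 4.69.

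Rows were also grouped by name and by class content, as a description. Over the 104 rows that are the sole class of their symbol, 50 were tested, with a median log2 fold change of -0.19 for both rocaglates, and over the 976 others 367 were tested, with -0.20. Rows with a LOC name (126, of which 56 were tested) had a median of -0.20 and 18 above 0. The 25 zinc finger (ZNF) rows gave 13 tested, with a median of -0.32 and 2 above 0. Of 71 rows whose symbol ends in P and a number, 24 were tested, with a median of -0.21 and 8 above 0. The 21 open-reading-frame (orf) rows and the 20 FAM and KIAA rows gave 4 and 6 tested, each with 1 above 0, and of 2 antisense rows 1 was tested. The 815 rows outside these name groups gave 313 tested, with a median of -0.18 and 125 above 0. None of these groups held a called row.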

How the data were processed

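Per the labels, the deposited values are read counts of 9 anti-FLAG eCLIP libraries and 1 input library, in 7 classes for each of 39472 symbols. Per the submitters' processing notes, the authors used cutadapt and Bowtie 1.1. Of the build, the annotation, duplicate removal, strand and the counting rule, each was not given in the sources used here. Each file had 1 blank row, which was left out. The members and lists were chosen with earlier results of these data known.

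Counts were tested with edgeR 4.0.16 in R 4.3.3 (filterByExpr, TMM, quasi-likelihood test, group means alone), with DESeq2 1.42.0 as an alternative. A standard error is the log2 fold change divided by the square root of its F statistic. A row against its symbol was tested with diffSpliceDGE. Both steps were tested on simulated data, where the edgeR test missed most small changes and many larger ones. There diffSpliceDGE missed most changes, large ones included. Levels against input use library totals. Intervals (95%) cover counting error only, since reads carried no stated molecular identifiers, and 3 counts is the floor.

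Same-number anti-FLAG libraries deviated together (9 pairs, correlations 0.102 to 0.263, against -0.203 to 0.0163 in other pairs), so the numbers were taken as pairs from the data. This pairing enters only the fit with the library number as a block. The main fit has no block, so p-values printed without mention of it take no account of the pairing. The blocked value is given where it changes a call. The labels do not say whether replicates were separate cultures, so p-values measure only the spread between these libraries. Within groups, every 2 libraries differed beyond sampling noise (chi-square over degrees of freedom, 4.66 to 10.4).

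Named rows were the 15 most abundant, any row called in the main or blocked fit, the 5 highest and 5 lowest fold changes for both rocaglates, the 5 highest and 5 lowest tested ratios to input, and 3 rows on each side of the threshold. Alternatives were other size factors, no filter, DESeq2, the block, fits of 2 groups alone, leaving out each library and other thresholds of membership. A marker and some sequences are not reported here.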

Additional observations from a re-analysis of the deposited data

How the results depend on the processing

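Counts of called rows were 0 in the main fits and small in every alternative. With the library number as a replicate block, edgeR called 1 row (MLF2) with silvestrol, 0 with CR-1-31-B and 1 (MLF2) for both rocaglates. DESeq2 called 1, 2 and 3. Without the filter, edgeR called 0 with silvestrol, 1 (CRKL) with CR-1-31-B and 4 for both (CRKL, MLF2, RCC1 and, lower, CNIH4, the last named after its values were seen). Leaving out 1 library gave 0 calls with silvestrol, 0 to 1 with CR-1-31-B (CRKL) and 0 to 3 for both (CRKL, MLF2 and TBC1D24), and each of these calls came without CR-1-31-B library 3. Other size factors and fits of 2 groups alone called 0, and CR-1-31-B against silvestrol and the rows against their symbols gave 0 in every alternative run. The CRKL log2 difference of CR-1-31-B minus silvestrol was -0.71 to 1.84 without 1 library, reversed without CR-1-31-B library 2, which held most CR-1-31-B counts of CRKL. The rows' median log2 fold change stayed below 0 in every alternative, at -0.28 to -0.07 with silvestrol, -0.42 to -0.05 with CR-1-31-B and -0.33 to -0.05 for both. The median DMSO to input ratio was 0.947 to 0.997 without 1 DMSO library and 0.781 with TMM-scaled sizes. With a threshold of 50 counts the DMSO share was 1.05%, in place of 1.18%, since fewer rows entered; the other shares moved by less than their SD. Depth limits all of these: 663 of the 1080 rows had too few counts to be tested.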
